A study of Mus musculus with 6 samples.

Results

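The genes described here encode 5 parts of the phagocyte NADPH oxidase (Cybb, Cyba, Ncf1, Ncf4 and Rac2) and the myeloid lysozyme (Lyz2). They were picked by name, as the rows of the gene count table whose Ensembl identifiers carry these symbols in the GRCm38 annotation, and all 6 were found among 54682 rows and passed the filter on low counts, with 14145 genes tested in all. Poly(A) RNA was sequenced from the livers of 6 mice, 3 homozygous for the Cd44tm1Hbg allele (Cd44-/-, called KO below) and 3 wild-type (WT). Mice of both genotypes took a Lieber-DeCarli liquid diet holding 5% ethanol by volume for 10 days, were gavaged once on day 11 with 5 g ethanol per kg body weight, and were killed 9 hours later. The single contrast is thus genotype under ethanol; sex and age are not stated in the sources used here, and no liver without ethanol was analysed here. The KO allele is germline, so Cd44 is missing from every cell type, and the RNA is of whole liver: fewer phagocytes and less oxidase mRNA per phagocyte cannot be told apart in such samples.

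The oxidase makes superoxide by passing electrons from NADPH in the cytosol across a membrane to oxygen. Its membrane core is a heterodimer of the products of Cybb (gp91phox, the catalytic subunit) and Cyba (p22phox, which stabilises it), and the enzyme is idle until the cytosolic factors encoded by Ncf1 (p47phox, the organiser) and Ncf4 (p40phox, which binds a phosphoinositide of phagosomes) join it together with the GTPase Rac2. Kupffer cells, recruited monocytes and neutrophils all carry the enzyme, and Lyz2 encodes the lysozyme that the same cells make, which cuts the peptidoglycan of bacterial walls.

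RefSeq promoter windows of build GRCm38.p6, each with 250 bases before and 50 after a start site, were found for 4 of the 6 genes (Cybb, Cyba, Ncf1 and Lyz2) and for Lyz1. The Cybb sequence is shown because Cybb had the largest fold difference among the 6 genes, and because mRNAs of factors known to bind such motifs are compared further on. The 250 bases before the Cybb start (chrX:9469325-9469574, minus strand) are given with capitals for matches to the CCAAT box (CCAAT) and to an interferon regulatory factor element (GAAA, any 2 bases, then GAAA again), both strands searched.
Cybb: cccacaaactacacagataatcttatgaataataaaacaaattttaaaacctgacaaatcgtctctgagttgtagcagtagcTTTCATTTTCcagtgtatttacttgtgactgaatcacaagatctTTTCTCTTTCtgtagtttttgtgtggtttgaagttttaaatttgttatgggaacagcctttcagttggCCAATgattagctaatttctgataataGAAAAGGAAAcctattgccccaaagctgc
A further 30 bases (chrX:9469298-9469327, minus strand) span the start site and carry, in capitals, a match to the PU.1 core (GAGGAA, both strands) whose first base is at position 10.
Cybb PU.1: tgctgttttcatTTCCTCatcagaagaaga
The RefSeq start lies inside the span of the GENCODE gene. The Cybb window held 3 interferon regulatory factor matches, starting at positions −168, −124 and −29 from the start site, 1 CCAAT match and 1 PU.1 core match. Of all 32851 promoter windows in the table, 3.44% held the interferon regulatory factor element, 37.4% a CCAAT match and 28.3% a PU.1 core. The Ncf1 window held 1 interferon regulatory factor match and none of the other letters searched, which included a C/EBP element (TTGCNNAA, in 10.8% of windows). The Cyba and Lyz2 windows held no match to any of the 4 motifs. The Lyz1 window held 1 CCAAT match (position −216) and 1 C/EBP match (position −209).

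Lyz2 has a close neighbour, Lyz1, the lysozyme of Paneth cells in the gut, and the pair is shown because reads could in principle be shared between them. The 150 bases before each start site (Lyz2, chr10:117282273-117282422; Lyz1, chr10:117292869-117293018; both on the minus strand) are given with capitals where the genes differ, position by position without gaps.
Lyz2: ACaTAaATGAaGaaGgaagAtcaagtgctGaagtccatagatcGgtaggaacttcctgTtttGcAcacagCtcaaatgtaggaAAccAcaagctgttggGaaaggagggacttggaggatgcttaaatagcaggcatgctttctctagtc
Lyz1: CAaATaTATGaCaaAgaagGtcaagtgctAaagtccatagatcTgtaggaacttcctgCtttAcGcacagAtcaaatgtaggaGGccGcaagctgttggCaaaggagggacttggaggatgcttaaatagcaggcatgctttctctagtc
The first 90 coding bases, from the GENCODE transcripts, are given in the same way.
Lyz2 coding: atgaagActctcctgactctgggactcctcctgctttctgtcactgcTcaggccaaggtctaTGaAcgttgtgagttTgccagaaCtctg
Lyz1 coding: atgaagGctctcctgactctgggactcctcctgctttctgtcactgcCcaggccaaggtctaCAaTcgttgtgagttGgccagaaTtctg
These promoter stretches of 150 bases shared 86.0% of their bases, while the full 250 bases before each start site shared 60.8%, again without gaps. The coding sequences of 447 bases differed at 22 positions, an identity of 95.1%, with a longest run without a difference of 118 bases. Lyz1 itself had 3, 7 and 1 counts in KO livers and 1, 7 and 8 in WT livers, where Lyz2 had 854 or more in each liver. Summing both genes left the Lyz2 difference at −1.17 on the log2 scale, which so few Lyz1 counts could hardly have changed. The sum does not cover reads that map to both genes, since their handling is not given.

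Libraries held 15493009 to 19346623 counts, so that a count of 0 allows up to 3 counts, or 0.150 to 0.206 CPM; this limit covers counting error only. CPM are counts relative to the TMM-scaled library size, and means are given ± SD with n = 3 mice per genotype. Cd44 had 1, 0 and 0 counts in KO livers and 590, 175 and 568 in WT livers, so no library went against its label. WT mouse 2 stood apart from WT mice 1 and 3 for the 6 genes, at 43.4% to 70.7% of their mean. Each fold difference of the 6 genes is therefore also given without it. Over 9764 genes with more than 600 pooled counts, however, WT mouse 3 differed most from the other WT mice. The chi-square per gene was 55.6 between WT mice 1 and 2, 121 between 1 and 3, and 164 between 2 and 3. The labels name separate mice and no batch. Fold changes are KO over WT on the log2 scale with their standard error, from edgeR's quasi-likelihood test, and adjusted p values are Benjamini-Hochberg values over all 14145 genes with a threshold of 0.05.

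All 6 genes had lower mean levels in KO livers, at 41.0% to 60.5% of the WT mean, and none passed the threshold over all genes. The median log2 fold change of the 6 was −1.06, against −0.01 over all genes tested, and 51.1% of all genes had a lower mean. At an unadjusted p under 0.05, 5 of the 6 were lower in KO livers, where 7.59% of all genes were. The 6 genes and the gene lists used further on were chosen with earlier results of these data known. The shares over all genes given beside them are therefore description and not a test of these sets. In edgeR 0 of the 6 passed an adjusted p of 0.05, where 0.0141% of all genes passed on the lower side. DESeq2 called 3 (Lyz2, Cybb and Rac2, where it called 1.22% of genes lower), and limma-voom called 0. Every KO liver was below every WT liver for 5 of the 6, against 9.42% of all genes; Ncf4 was the exception. Without WT mouse 2, edgeR called 3 of the 6 (Cybb, Lyz2 and Cyba), where it called 0.97% of genes lower. That mouse was left out because it was low in these same genes, so larger differences without it follow from the choice. With any other single mouse left out, edgeR called 0 of the 6. Without WT mouse 3 the log2 fold changes ran from −1.10 (Cybb) to −0.28 (Ncf4).

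**Figure D1:**
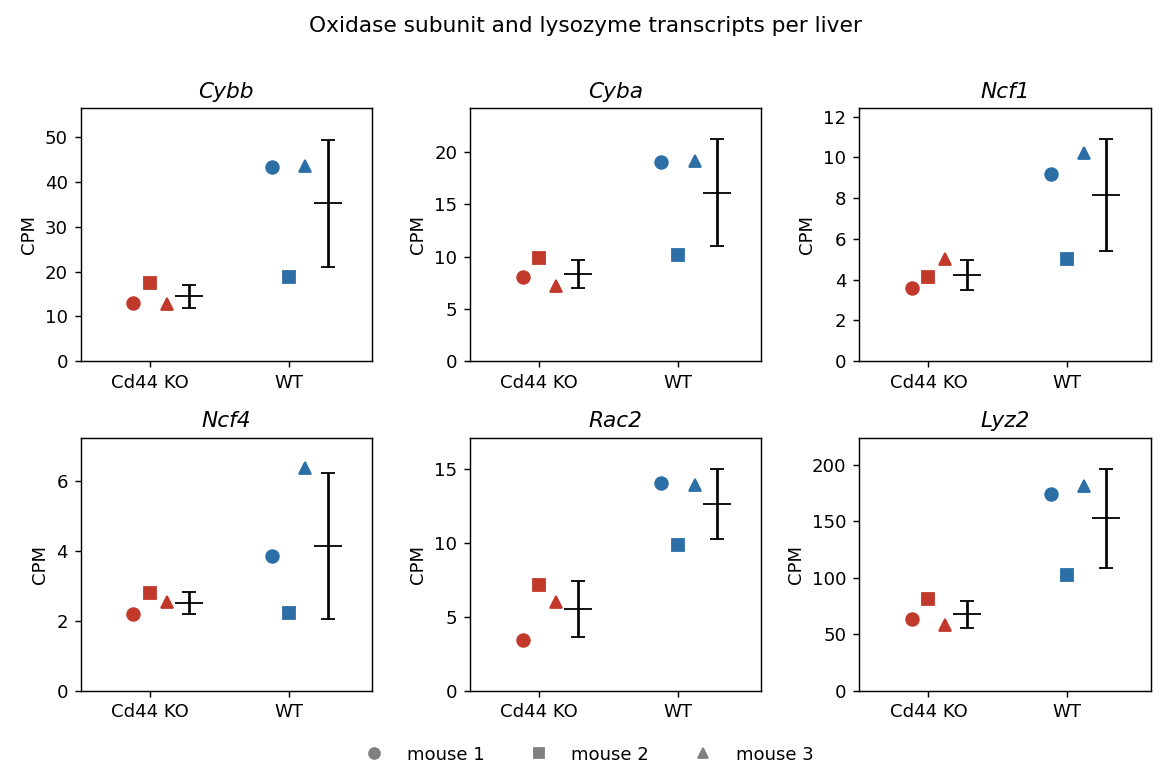
Level of each gene (y axis, CPM, from 0) in the livers of KO and WT mice (x axis); symbols are single mice, and the bar with caps is the mean ± SD of 3. WT mice 1 and 3 lie above all KO mice for each gene, and WT mouse 2 is at 0.791 (Ncf4) to 1.38 (Rac2) times the highest KO mouse; for Cybb it is at 18.9 CPM against 17.5 CPM in KO mouse 2.

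Of the membrane core, Cybb (ENSMUSG00000015340; chromosome X, 9435252 to 9487771, minus strand) was at 13.1, 17.5 and 12.8 CPM in KO livers 1, 2 and 3, and at 43.3, 18.9 and 43.5 CPM in WT livers 1, 2 and 3. Every KO liver was below every WT liver, but WT mouse 2 exceeded the highest KO mouse only 1.08 times. The mean was 14.5 ± 2.62 CPM in KO livers and 35.2 ± 14.2 CPM in WT livers, a log2 fold change of −1.28 ± 0.32 (edgeR adjusted p = 0.218; 95% interval −2.03 to −0.54). Without WT mouse 2 it was −1.57 ± 0.17 (edgeR adjusted p = 0.0162). Cyba (ENSMUSG00000006519; chromosome 8, 122424776 to 122432930, minus strand), the partner subunit, had 8.03, 9.82 and 7.20 CPM in KO livers against 19.0, 10.2 and 19.2 CPM in WT livers. The order of mice was the same, with WT mouse 2 at 53.3% of the mean of WT mice 1 and 3. The log2 fold change of Cyba was −0.95 ± 0.26 (edgeR adjusted p = 0.232), and −1.18 ± 0.18 without WT mouse 2 (adjusted p = 0.0429). Cyba is less restricted to phagocytes than Cybb, since p22phox also serves NADPH oxidases of other cells.

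Of the cytosolic factors, Ncf1 (ENSMUSG00000015950; chromosome 5, 134220053 to 134229625, minus strand) was at 3.58, 4.11 and 5.01 CPM in KO livers and at 9.19, 5.03 and 10.2 CPM in WT livers. KO mouse 3 and WT mouse 2 were all but equal in CPM, at a ratio of 1.00, and in raw counts the genotypes overlapped, with 54, 82 and 73 in KO livers and 169, 77 and 201 in WT livers. The mean was 4.23 ± 0.718 CPM in KO livers and 8.15 ± 2.76 CPM in WT livers (log2 fold change −0.95 ± 0.30, edgeR adjusted p = 0.262; −1.19 ± 0.22 without WT mouse 2, adjusted p = 0.0640). Exons of Ncf1 overlap those of Gtf2ird2 on the other strand over 408 bases, and without strand the reads there cannot be told apart. Gtf2ird2, a transcription factor gene, was at 9.48 ± 0.705 CPM in KO livers and 12.3 ± 1.94 CPM in WT livers, with a log2 fold change of −0.37 ± 0.17 (edgeR adjusted p = 0.420); its part in the Ncf1 value was not tested.

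Ncf4 (ENSMUSG00000071715; chromosome 15, 78244801 to 78262580, plus strand) was the least abundant in counts, with 33, 56 and 37 in KO livers and 71, 34 and 125 in WT livers. In CPM these were 2.19, 2.81 and 2.54 in KO livers and 3.86, 2.22 and 6.37 in WT livers. The genotypes overlapped, since KO mice 2 and 3 were above WT mouse 2, and WT mouse 3 alone was well above the rest. The log2 fold change was −0.73 ± 0.38 (edgeR adjusted p = 0.484; 95% interval −1.61 to 0.15), and Ncf4 was the 1 gene of the 6 whose interval held 0 with all mice. Without WT mouse 2 the log2 fold change was −1.01 ± 0.30 (edgeR adjusted p = 0.164; 95% interval −1.72 to −0.30), and without WT mouse 3 it was −0.28 ± 0.33 (edgeR adjusted p = 0.793).

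Rac2 (ENSMUSG00000033220; chromosome 15, 78559167 to 78572783, minus strand), the GTPase of blood cells, was at 3.45, 7.16 and 5.96 CPM in KO livers and at 14.0, 9.86 and 13.9 CPM in WT livers. The genotypes did not overlap, and WT mouse 2 exceeded the highest KO mouse 1.38 times, the widest such gap among the 6 genes. The mean was 5.53 ± 1.89 CPM in KO livers and 12.6 ± 2.36 CPM in WT livers (log2 fold change −1.18 ± 0.28, edgeR adjusted p = 0.217; 95% interval −1.83 to −0.53; DESeq2 adjusted p = 0.0182). Without WT mouse 2 it was −1.32 ± 0.29 (adjusted p = 0.0871). Among KO livers Rac2 had the largest SD relative to its mean of the 6 genes, with 52 counts in mouse 1 and 143 in mouse 2.

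Lyz2 (ENSMUSG00000069516; chromosome 10, 117277331 to 117282321, minus strand) was by far the most abundant, with 955, 1624 and 854 counts in KO livers and 3198, 1563 and 3562 in WT livers. In CPM these were 63.4, 81.3 and 58.6 in KO livers and 174, 102 and 181 in WT livers. Every KO liver was below every WT liver once scaled to library size, although KO mouse 2 had more raw counts than WT mouse 2. The log2 fold change was −1.17 ± 0.24 (edgeR adjusted p = 0.217; 95% interval −1.72 to −0.62; DESeq2 adjusted p = 0.00111), and −1.38 ± 0.16 without WT mouse 2 (edgeR adjusted p = 0.0188). It had the smallest unadjusted p of the 6, at rank 66 of 14145 genes, and Ncf4 the largest, at rank 2698.

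**Figure D2:**
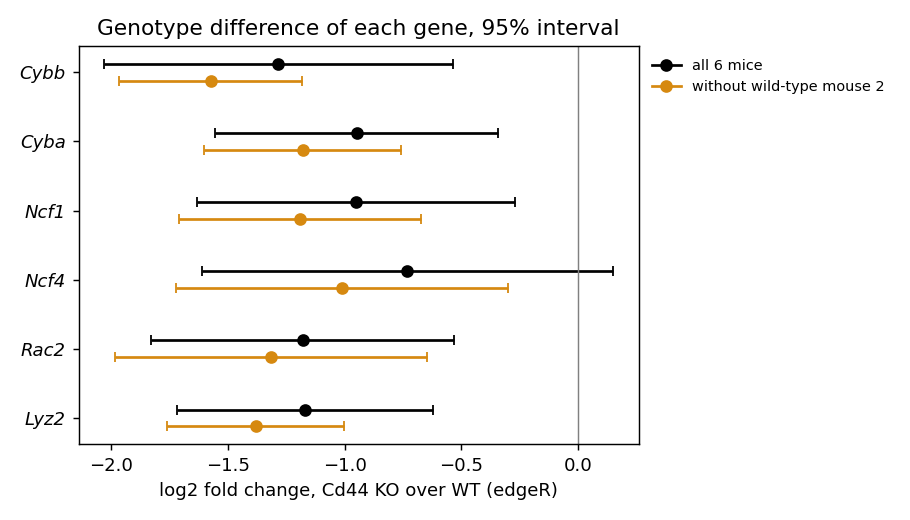
Log2 fold change of KO over WT (x axis) for each gene (rows) from edgeR with its 95% interval, from all 6 mice (black) and without WT mouse 2 (orange). The intervals of 5 genes lie below 0 and that of Ncf4 runs from −1.61 to 0.15. Leaving out WT mouse 2, the lowest WT liver for each gene, moves each estimate lower by construction.

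Scaled to exon length, the order of levels was much the same in both genotypes. Lyz2 stood at 51.5 ± 9.13 CPM per kb in KO livers and 116 ± 33.3 in WT livers. Cyba followed at 8.04 ± 1.29 CPM per kb in KO livers and 15.5 ± 4.95 in WT livers, then Cybb at 2.49 ± 0.451 and Rac2 at 1.78 ± 0.610 in KO livers, with 6.07 ± 2.44 for Cybb and 4.05 ± 0.762 for Rac2 in WT livers. Ncf4 and Ncf1 were lowest in KO livers, at 1.24 ± 0.152 and 1.16 ± 0.196 CPM per kb, and in WT livers, at 2.05 ± 1.03 and 2.23 ± 0.753. Neighbours from Cybb down lay within each other's spread in at least 1 genotype, while Lyz2 and Cyba were each clear of the next gene in both. On this scale Cyba stood above its partner Cybb in each genotype.

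Ratios between genes of the same liver do not depend on library size. The log2 ratio of Lyz2 to Cybb counts was 2.28, 2.22 and 2.19 in KO livers and 2.00, 2.44 and 2.06 in WT livers, with overlap. That of Rac2 to Cybb averaged −1.44 ± 0.43 in KO livers and −1.40 ± 0.41 in WT livers, also overlapping. Cyba stood higher against Cybb in KO livers, at −0.70, −0.83 and −0.83, than in WT livers, at −1.19, −0.89 and −1.18, so that the genotypes did not overlap and the means differed by 0.30. Ncf4 relative to Cybb did not overlap either, with −2.52 ± 0.16 in KO livers and −3.12 ± 0.36 in WT livers. For both ratios the two-sided exact permutation test gave p = 0.1, the smallest that 3 against 3 mice allow, and 0.633 after adjustment over the 19 ratios computed. WT mouse 2 was the WT liver nearest to the KO livers in the ratio of Cyba to Cybb.

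Markers of cells that carry the oxidase had lower means in KO livers as well. Of 10 Kupffer cell markers all had a lower mean in KO livers and 9 had an unadjusted p under 0.05, against 51.1% and 7.59% of all genes; their summed level ran from 325 to 351 CPM in KO livers and was 1023, 358 and 887 CPM in WT livers 1, 2 and 3. WT mouse 2 lay just above the KO range in this sum. Adgre1, which encodes the macrophage antigen F4/80, was at 8.99 ± 1.73 CPM in KO livers and 26.5 ± 14.1 CPM in WT livers; it was named after its values were seen. The 6 pan-leukocyte markers were all lower in mean, and their sum ran from 110 to 124 CPM in KO livers and from 184 to 227 CPM in WT livers, without overlap. Lcp1 gave the largest part of this sum, at 74.3 ± 5.13 CPM in KO livers and 110 ± 24.4 CPM in WT livers (log2 fold change −0.56 ± 0.17). Ratios to the pan-leukocyte sum therefore rest mainly on Lcp1. The 6 monocyte markers summed to 12.5 to 16.3 CPM in KO livers and to 15.1 to 25.1 CPM in WT livers, with overlap, with 5 lower in mean and 1 at an unadjusted p under 0.05. The 7 dendritic cell markers summed to 11.1 to 15.9 CPM in KO livers and to 16.8 to 22.5 CPM in WT livers.

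Markers of neutrophils, which are rich in this oxidase in blood, had few reads. The 13 neutrophil markers summed to 3.22 to 7.30 CPM in KO livers and to 6.72 to 10.8 CPM in WT livers, and only 4 passed the filter on low counts. All 4 had a lower mean in KO livers and 2 had an unadjusted p under 0.05, against 51.1% and 7.59% of all genes. Mpo, the granule myeloperoxidase, had 0 counts in the 3 KO livers and 0, 0 and 2 in the 3 WT livers, and 6 of the 13 markers had 10 or fewer counts over all 6 livers. B cell markers, whose cells also use Rac2, summed to 1.73 to 8.27 CPM in KO livers and to 2.04 to 12.2 CPM in WT livers, and T and NK cell markers to 1.39 to 4.56 CPM in KO livers and to 1.83 to 5.03 CPM in WT livers, both overlapping. Hepatocyte markers summed to 85193 to 105996 CPM in KO livers and to 80038 to 94672 CPM in WT livers.

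Set against the summed Kupffer cell markers of the same liver, none of the 6 genes separated the genotypes. The log2 ratio averaged −4.56 ± 0.20 in KO livers and −4.39 ± 0.16 in WT livers for Cybb, and −2.33 ± 0.20 in KO livers and −2.22 ± 0.38 in WT livers for Lyz2. Over the 6 genes the KO minus WT difference of this ratio ran from −0.20 (Rac2) to 0.43 (Ncf4), and all 6 overlapped. Against the pan-leukocyte sum the difference ran from −0.48 (Rac2) to 0.15 (Ncf4), and all 6 overlapped as well. The smallest two-sided exact permutation p among these 12 ratios was 0.2 (0.713 adjusted over the 19 ratios), which does not show that the ratios were alike. The part of cell numbers in the differences of the 6 genes was not tested.

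**Figure D3:**
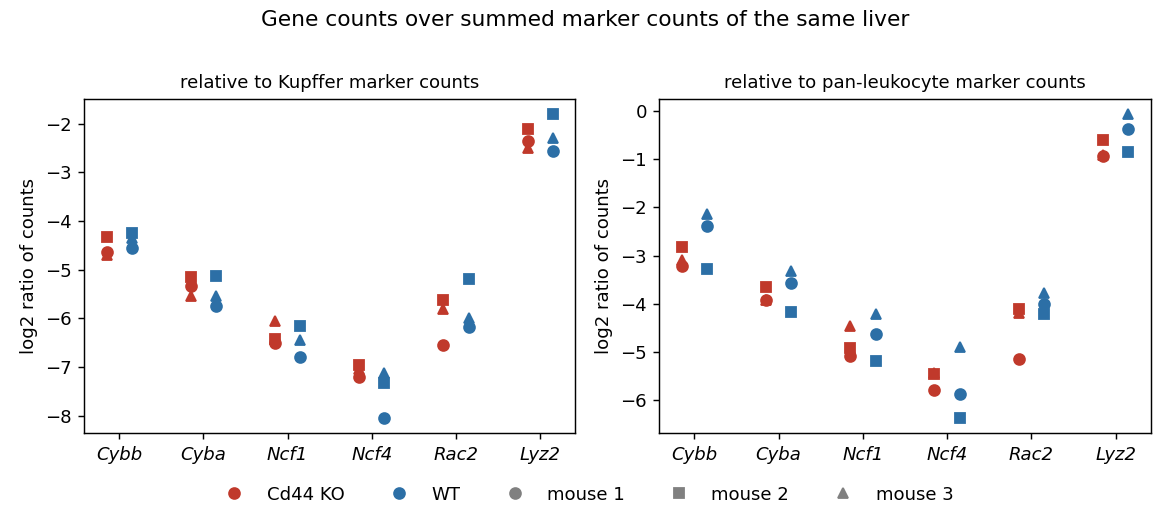
Log2 ratio of each gene's counts to the summed counts of 10 Kupffer cell markers (left panel) or 6 pan-leukocyte markers (right panel) of the same liver (y axis), for KO mice (red) and WT mice (blue), with 1 symbol per mouse. The genotypes overlap for each gene in both panels.

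Among other oxidase components and homologues, Rac1, the Rac GTPase of most cell types, was at 133 ± 9.53 CPM in KO livers and 146 ± 3.33 CPM in WT livers (−0.14 ± 0.11, edgeR adjusted p = 0.673); its exons overlap Daglb on the other strand. The log2 ratio of Rac1 to Rac2 counts was higher in each KO liver (5.37, 4.20 and 4.37) than in any WT liver (3.40, 3.85 and 3.42), with the smallest exact permutation p possible, 0.1, and 0.633 after adjustment over the 19 ratios. Cybc1, a chaperone needed for the gp91phox protein, was at 12.3, 11.5 and 11.4 CPM in KO livers and at 13.5, 10.8 and 14.7 CPM in WT livers (−0.15 ± 0.16, edgeR adjusted p = 0.772). Nox4, the homologue of stromal and epithelial cells, was at 6.32 ± 2.89 CPM in KO livers and 7.67 ± 2.28 CPM in WT livers (−0.28 ± 0.35, edgeR adjusted p = 0.807). Noxa1, an activator of the Nox1 oxidase, was at 0.918 ± 0.132 CPM in KO livers and 1.33 ± 0.486 CPM in WT livers (−0.52 ± 0.38, edgeR adjusted p = 0.638). The genotypes overlapped for Rac1, Cybc1, Nox4 and Noxa1. Exons of Noxa1 overlap those of the more abundant Entpd8 over 50 bases on the other strand. Cybc1 overlaps Hexdc in the same way over 68 exon bases. Nox1, Nox3 and Duox1 had 0 counts in all 6 livers; Nox1, Nox3 and Duox1 were named after their values were seen.

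Genes around the activation of the oxidase (receptors, kinases, exchange factors, a proton channel and others) were lower in mean for 27 of 29 tested. Their median log2 fold change was −0.87, and 51.1% of all genes had a lower mean. In edgeR 0 passed the threshold. At an unadjusted p under 0.05, 17 were lower and 0 higher, where 7.59% and 5.22% of all genes were. DESeq2 called 5, all lower, where it called 1.22% of genes lower. Every KO liver was below every WT liver for 14 of the 29, against 9.42% of all genes. Clec7a, the beta-glucan receptor dectin-1, had 85, 127 and 56 counts in KO livers and 387, 183 and 518 in WT livers, which did not overlap (−1.90 ± 0.32, edgeR adjusted p = 0.217; DESeq2 adjusted p = 1.56e-05). Prkcd, a protein kinase C that phosphorylates p47phox, was at 13.6 ± 2.95 CPM in KO livers and 25.1 ± 3.13 CPM in WT livers (−0.88 ± 0.19). Dock2, an exchange factor for Rac in leukocytes, was at 1.73, 3.81 and 2.26 CPM in KO livers and at 7.18, 6.33 and 6.01 CPM in WT livers, and here WT mouse 2 lay with the other WT mice. Fcer1g, the signalling chain of Fc receptors, was at 7.60 ± 0.907 CPM in KO livers and 15.3 ± 4.85 CPM in WT livers (−1.01 ± 0.26), and the kinase Btk at 0.889 ± 0.186 CPM in KO livers and 2.74 ± 1.06 CPM in WT livers (−1.61 ± 0.40). Hvcn1, a proton channel that balances the charge moved by the oxidase, had 8, 29 and 7 counts in KO livers and 13, 25 and 14 in WT livers. Hvcn1 was a fixed choice, while the other examples were those with the smallest p in the list. Its log2 fold change was −0.21 ± 0.57 and turned positive without WT mouse 2 (0.29). Exons of Hvcn1 overlap Tctn1 on the other strand.

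**Figure D4:**
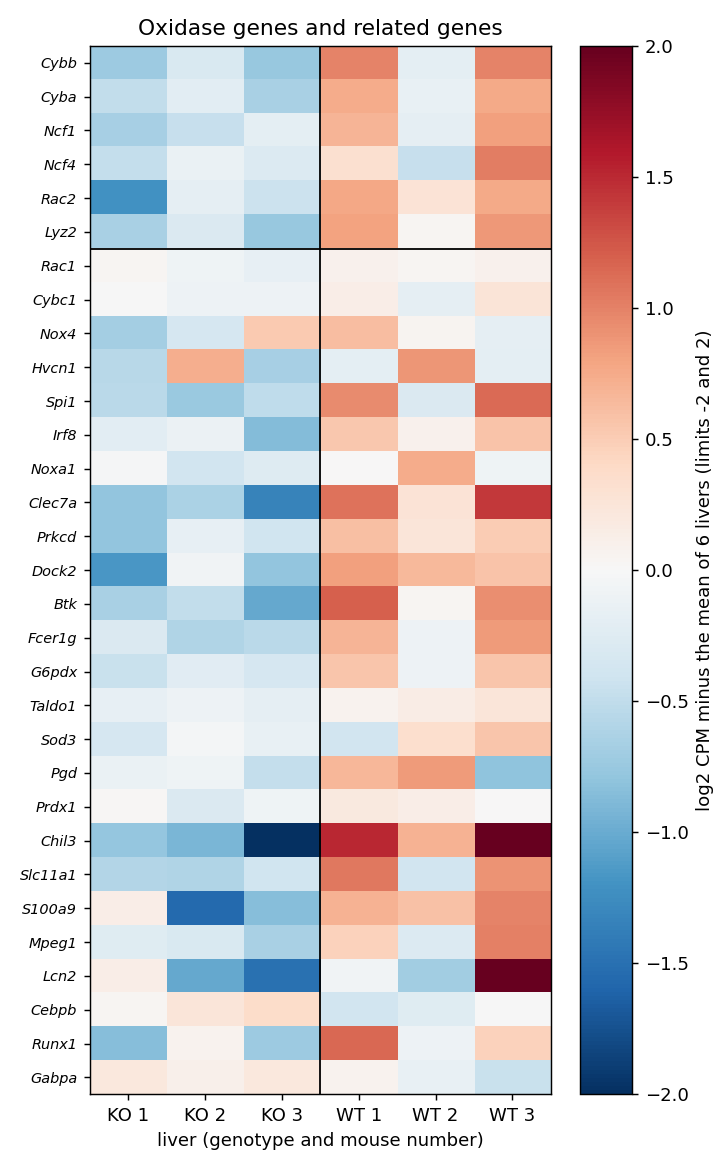
Log2 CPM of each gene minus its mean over the 6 livers (colour, limits −2 and 2; prior count 2) for the 6 genes (above the line) and related genes (below it), with livers in columns, KO left of WT. WT mice 1 and 3 are above the mean for each of the 6 genes and for Spi1, Clec7a and Slc11a1, while Rac1 and Cybc1 stay near the mean in all livers.

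Superoxide is handled by dismutases, catalase and peroxidases, and NADPH is supplied by the pentose phosphate pathway. Of 16 such genes tested, 10 had a lower and 6 a higher mean in KO livers (median log2 fold change −0.08), and 2 were lower and 0 higher at an unadjusted p under 0.05. Over all genes 51.1% had a lower mean, 7.59% were lower and 5.22% higher at that p, so these counts were near the background. The median was 0.03 without WT mouse 2. G6pdx, whose enzyme opens the pentose phosphate pathway, was at 6.34 ± 0.511 CPM in KO livers and 10.4 ± 2.55 CPM in WT livers (−0.71 ± 0.22, edgeR adjusted p = 0.264). It overlaps the more abundant Ikbkg over 418 exon bases on the other strand and is uncertain. Taldo1, the transaldolase of the same pathway, was at 107 ± 3.51 CPM in KO livers and 132 ± 7.77 CPM in WT livers (−0.31 ± 0.11, edgeR adjusted p = 0.306). These 2 genes did not overlap between the genotypes, where 9.42% of all genes had every KO liver below every WT liver. The extracellular dismutase Sod3 (−0.39 ± 0.23), Pgd (−0.63 ± 0.39) and Prdx1 (−0.23 ± 0.16) had adjusted p values from 0.537 to 0.611 in edgeR, with overlap.

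Beside Lyz2, 6 of 18 other antimicrobial protein genes, Lyz1 among the 18, passed the low-count filter. All 6 had a lower mean, against 51.1% of all genes. At an unadjusted p under 0.05, 4 were lower and DESeq2 called 2, against 7.59% and 1.22% of all genes. Slc11a1, a metal transporter of the phagosome, was at 8.56, 8.47 and 9.74 CPM in KO livers and at 26.9, 9.86 and 24.2 CPM in WT livers (−1.19 ± 0.35, edgeR adjusted p = 0.247), and WT mouse 2 again lay just above the KO range. Mpeg1, the pore-forming perforin-2 of macrophages, was at 53.8, 51.9 and 40.6 CPM in KO livers and at 88.2, 53.1 and 129 CPM in WT livers, with overlap (−0.88 ± 0.30, edgeR adjusted p = 0.298). Chil3, a chitinase-like protein of activated macrophages, had 6, 7 and 0 counts in KO livers and 44, 20 and 90 in WT livers (−3.39 ± 0.73, edgeR adjusted p = 0.217). S100a9 had 16, 5 and 7 counts in KO livers and 30, 23 and 40 in WT livers (−1.58 ± 0.49, edgeR adjusted p = 0.258). Lcn2, which hepatocytes also make, had 2850, 1705 and 899 counts in KO livers and 3050, 1639 and 29981 in WT livers, so its mean was set by WT mouse 3.

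Among transcription factors known from myeloid promoters, 12 of 14 genes were tested, 6 with a lower and 6 with a higher mean. Over all genes 51.1% had a lower mean. Spi1, which encodes PU.1, was at 7.17, 6.26 and 7.40 CPM in KO livers and at 20.3, 8.62 and 23.1 CPM in WT livers (−1.33 ± 0.34, edgeR adjusted p = 0.220; −1.64 without WT mouse 2, adjusted p = 0.0139). Irf8, an interferon regulatory factor of the monocyte lineage, was at 7.37, 7.86 and 4.66 CPM in KO livers and at 12.5, 9.14 and 12.8 CPM in WT livers (−0.79 ± 0.24, edgeR adjusted p = 0.259). Neither gene overlapped between genotypes, where 9.42% of all genes had every KO liver below every WT liver. Both followed the order of mice seen for Cybb in that WT mouse 2 was the lowest WT liver. Runx1 was at 1.37 ± 0.555 CPM in KO livers and 2.92 ± 1.32 CPM in WT livers (−1.07 ± 0.43, edgeR adjusted p = 0.359). Cebpb, also active in hepatocytes, went the other way, at 147 ± 16.8 CPM in KO livers and 110 ± 14.8 CPM in WT livers (0.43 ± 0.15, edgeR adjusted p = 0.294). Exons of Cebpb overlap those of the less abundant Tmem189 over 312 bases on the other strand. Of all 70 genes tested in these wider lists, Cebpb was the 1 higher at an unadjusted p under 0.05, where 27 were lower. Over all genes 5.22% were higher and 7.59% lower at that p. Gabpa, at 59.2 ± 2.58 CPM in KO livers and 46.9 ± 8.29 CPM in WT livers (0.33 ± 0.15), overlaps the more abundant Atp5j on the other strand.

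The genes outside these lists whose pattern was most like the average of the 6 were Pld4, Rassf4, Bin2, Tm6sf1 and Chek1. Likeness was the root-mean-square distance between mean-centred log2 CPM over the 6 livers, and 12558 protein-coding genes were ranked. Pld4 came first at a distance of 0.060, with 6.11, 8.92 and 6.86 CPM in KO livers and 16.5, 8.68 and 19.2 CPM in WT livers. Rassf4 followed at 0.079, and Chek1 closed the 5 at 0.101 with under 2 CPM in each liver. The distance of the 6 genes to their own average ran from 0.117 for Cyba to 0.270 for Rac2. The 5 genes were picked as the smallest of 12558 distances, so their low values follow from that choice. The average itself stood at −0.70, −0.26 and −0.51 in KO livers and at 0.72, −0.11 and 0.87 in WT livers, where WT mouse 2 was closer to the KO livers than to the other WT livers.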

How the data were processed

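The authors deposited raw counts of reads per Ensembl gene, with a column for each mouse, matched here through the labels. The submitters' processing notes name featureCounts 1.5.0-p3, HISAT2 2.0.5 and StringTie 1.3.3b, with build GRCm38.p6. For strand, annotation release and multi-mapping reads the setting is not given in the sources used here. In R 4.3.3, edgeR 4.0.16 tested genotype over all genes passing filterByExpr (TMM, robust quasi-likelihood F test, Benjamini-Hochberg adjustment). The 150 rows lacking a gene name, 0.273% to 0.509% of each library, were dropped. Standard errors are the fold change over the square root of F. As alternatives served DESeq2 1.42.0 and voom in limma 3.58.1. Symbols, exon lengths and positions came from GENCODE M21 (GRCm38), and promoters from RefSeq.

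The 6 genes and all lists were chosen with earlier results of these data known. Beside the 6, genes were named by rule: 10 fixed genes, up to 5 per list by smallest p, defining markers, an overlapping gene, and the 5 nearest in pattern. The edgeR fit was tested on simulated data. Replicates of a genotype differed by far more than counting noise. Of the genes named by this rule, 1 is not reported here.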

Additional observations from a re-analysis of the deposited data

How the results depend on the processing

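Each of the 6 genes had a lower mean in KO livers under all 91 combinations of gene and alternative, with log2 fold changes from −1.57 to −0.28. The count of the 6 past the threshold, 0 in edgeR, was 3 with DESeq2 and 0 to 3 when 1 mouse was left out, where 3 was reached without WT mouse 2. Under another size factor, no filter, a stricter filter, no robust shrinkage, the older quasi-likelihood fit (added after the data were seen), limma-voom and protein-coding genes only it stayed at 0. Those lower at an unadjusted p under 0.05 numbered 5 in the fit to all mice and under those settings, and 5 to 6 when 1 mouse was left out. In the fit to all mice 7.59% of all genes were lower and 5.22% higher at that p. Of the 70 genes of the wider lists, 0 passed in edgeR, 8 with DESeq2 and 0 to 9 when 1 mouse was left out; 27 were lower at an unadjusted p under 0.05 (16 to 33 when 1 mouse was left out, the fewest without KO mouse 3), and 1 was higher, against 2 with another size factor, with no filter, with limma-voom and with protein-coding genes only, and 0 to 2 when 1 mouse was left out. Hvcn1 ran from −0.96 to 0.29 when 1 mouse was left out and changed sign without KO mouse 1 (0.03), KO mouse 3 (0.05) or WT mouse 2 (0.29); the cause was not tested. The labels do not say whether the mouse numbers pair animals. Same-numbered mice correlated at −0.02, −0.02 and −0.01 in their deviations across genes, which cannot exclude a pairing. With the mouse number as a replicate block 0 of the 6 genes and 0 of the 70 passed, and 5 and 23 were lower at an unadjusted p under 0.05. Over all genes, edgeR called 2 lower and 0 higher, DESeq2 178 and 93, edgeR with no filter 4 and 2, edgeR with the block or in its older form 1 and 0, limma-voom 0 and 0, and edgeR without WT mouse 2 142 and 9; leaving out another mouse gave 0 to 2 lower. Depth limits Lyz1, Mpo and 6 of 13 neutrophil markers, whose counts were near the limit that a count of 0 allows, and Ncf4 with its 33 to 125 counts.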
